A study of Homo sapiens with 12 samples.

Results

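The genes described are 10 components of the circadian clock, the transcriptional loop by which cells keep a daily rhythm. They are BHLHE40, BHLHE41, PER1, PER2, PER3, CRY1, CRY2, NR1D1, NR1D2 and ARNTL, taken by gene symbol from the 25369 genes of the count and RPKM tables, and all 10 were present. They were measured by strand-specific poly(A)+ RNA-seq in 12 libraries from 3 established human cancer cell lines, with 2 independent replicates of each line in normoxia and 2 in hypoxia (1% O2) for 24 h. RKO is a colon carcinoma line and A549 a lung adenocarcinoma line, both grown in DMEM, and H460 is a large cell lung carcinoma line grown in RPMI, so line and medium cannot be told apart in comparisons with H460. No gene was edited and no drug was given in these groups, and the normoxic cells of the same line are the control for each hypoxic group.

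In the clock, ARNTL (also called BMAL1) pairs with CLOCK or NPAS2 and drives transcription from E-box elements. The PER and CRY proteins are made in response and repress that pair, while BHLHE40 and BHLHE41 (DEC1 and DEC2) are repressors that bind E-boxes themselves. NR1D1 and NR1D2 (REV-ERB alpha and beta) are nuclear receptors that repress ARNTL, and ROR receptors activate it from the same elements. ARNTL is a bHLH-PAS protein, the family to which the hypoxia-inducible factors also belong, and BHLHE40 and BHLHE41 are long known as hypoxia-responsive genes. Each line was harvested at 1 time point, so a shift in clock phase and a change in the daily mean of a transcript cannot be told apart. In these bulk samples, fewer expressing cells and less RNA per cell cannot be told apart either.

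The stretches upstream of 6 members are shown because BHLHE40, BHLHE41, PER1 and NR1D1 had some of the largest changes below, NR1D2 holds a pair of E-boxes, and PER3 and NR1D2 hold the D-box-like letters bound by DBP, TEF and NFIL3. They are the 250 bases before a transcript start in RefSeq (GRCh38.p14), printed 5′ to 3′ on the gene's own strand. All 10 members had at least 1 such stretch, 14 in all, with ARNTL listed under BMAL1. Capitals mark CACGTG (the E-box), ACGTG (the core of the hypoxia response element, which also lies inside every CACGTG), the related GCGTG, together with TTATGTAA, read on either strand. The stretches lie at chr3:4979187-4979436, plus strand (BHLHE40), chr12:26125038-26125287, minus strand (BHLHE41), chr17:8152405-8152654, minus strand (PER1), chr1:7784041-7784290, plus strand (PER3), chr17:40100590-40100839, minus strand (NR1D1) and chr3:23945871-23946120, plus strand (NR1D2).
BHLHE40: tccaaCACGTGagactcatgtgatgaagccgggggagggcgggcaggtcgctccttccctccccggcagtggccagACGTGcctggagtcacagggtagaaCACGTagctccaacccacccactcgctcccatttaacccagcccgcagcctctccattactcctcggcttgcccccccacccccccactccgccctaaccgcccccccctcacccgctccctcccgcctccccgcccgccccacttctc
BHLHE41: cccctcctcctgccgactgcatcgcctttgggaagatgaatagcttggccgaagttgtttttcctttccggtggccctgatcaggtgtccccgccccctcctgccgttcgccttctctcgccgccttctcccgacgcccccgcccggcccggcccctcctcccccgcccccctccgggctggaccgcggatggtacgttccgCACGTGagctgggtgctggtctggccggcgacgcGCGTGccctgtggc
PER1: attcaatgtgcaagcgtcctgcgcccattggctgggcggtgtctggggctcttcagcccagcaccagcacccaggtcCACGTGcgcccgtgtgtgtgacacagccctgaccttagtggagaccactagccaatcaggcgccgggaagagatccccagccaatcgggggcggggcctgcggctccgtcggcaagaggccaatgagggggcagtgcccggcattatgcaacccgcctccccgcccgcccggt
PER3: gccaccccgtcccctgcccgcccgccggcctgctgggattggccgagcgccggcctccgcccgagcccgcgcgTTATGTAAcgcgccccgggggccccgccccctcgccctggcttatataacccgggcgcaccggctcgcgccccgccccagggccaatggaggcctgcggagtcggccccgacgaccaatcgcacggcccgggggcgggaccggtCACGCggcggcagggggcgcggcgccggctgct
NR1D1: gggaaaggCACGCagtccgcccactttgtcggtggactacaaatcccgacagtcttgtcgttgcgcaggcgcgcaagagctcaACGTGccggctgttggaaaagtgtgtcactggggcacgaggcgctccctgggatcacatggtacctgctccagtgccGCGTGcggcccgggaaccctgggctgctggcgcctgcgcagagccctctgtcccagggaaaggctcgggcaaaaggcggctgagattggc
NR1D2: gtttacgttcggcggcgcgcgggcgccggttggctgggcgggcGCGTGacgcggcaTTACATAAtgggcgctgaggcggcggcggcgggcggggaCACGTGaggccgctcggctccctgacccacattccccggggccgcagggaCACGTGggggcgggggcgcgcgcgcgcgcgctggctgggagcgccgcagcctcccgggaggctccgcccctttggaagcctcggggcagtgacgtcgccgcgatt

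CACGTG occurred upstream of 4 of the 10 members, BHLHE40, BHLHE41, PER1 and NR1D2, and in 4 of the 14 member stretches, while 6.34% of all 35116 stretches of the same length held it. ACGTG occurred upstream of 8 members, in 8 of the 14 member stretches and in 18.5% of all stretches. GCGTG occurred upstream of 5 members, in 6 of the 14 member stretches and in 32.2% of all stretches. TTATGTAA occurred upstream of 2 members, in 2 of the 14 member stretches and in 0.834% of all stretches. The nuclear receptor half-site AGGTCA, not capitalized above, occurred upstream of 2 members, in 3 of the 14 member stretches and in 12.1% of all stretches. The variant GGGTCA, also not capitalized, was found upstream of 2 members, in 3 of the 14 member stretches and likewise in 12.1% of all stretches. The 2 stretches upstream of ARNTL held none of these 6 motifs. These are matches of letters within 250 bases and not measured binding sites.

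The libraries held 27350424 to 41757584 counted reads. CA9, NDRG1 and 5 other textbook hypoxia-induced genes served as a check of the labels, and RKO and H460 each showed a called rise of all 7, against 5 in A549. Means of the marker genes below are over the 4 libraries of a line. Of 5 colon genes, CDX2 alone reached a mean of 1 RPKM in RKO. Of 5 lung adenocarcinoma genes, NAPSA and KRT7 reached it in A549, and NKX2-1, SFTPB and SFTPC did not. NKX2-1 averaged 0.015 RPKM in normoxic and 1.14 RPKM in hypoxic H460. KRT7 alone of these genes also reached a mean of 1 RPKM over the libraries of RKO and of H460. Of 4 epithelial genes, 3 reached it in RKO, 4 in A549 and 2 in H460, where KRT8 and KRT18 did and CDH1 and EPCAM did not, and their summed level was 69.5 to 131 RPKM in RKO, 1230 to 1700 in A549 and 431 to 695 in H460. Of 4 mesenchymal genes, 1 reached it in RKO, 2 in A549 and 4 in H460, with sums of 5.00 to 6.43, 902 to 1960 and 523 to 1770 RPKM. VIM, among the mesenchymal genes, stood at 1134 and 1047 CPM in normoxic and 4787 and 4424 CPM in hypoxic H460. In A549 it stood at 2156 and 1780 CPM in normoxia and at 3220 and 4189 CPM in hypoxia. The other mesenchymal genes did not all follow VIM in H460. Mean CPM in H460 went from 10.89 to 15.62 for COL1A1, 11.73 to 9.71 for COL3A1 and 12.555 to 12.985 for PDGFRB. The H460 conditions overlapped for COL3A1 and PDGFRB. In A549, mean COL1A1 went from 65.11 to 279.42 CPM, and COL3A1 and PDGFRB did not reach a mean of 1 RPKM. The part of these genes in the results was not tested. The leukocyte gene PTPRC was at or near 0 in every library. Levels are given as CPM (counts scaled to an equal library total with TMM factors over all 12 libraries). Where genes are compared with each other they are given as RPKM, which divides counts by gene length and by the library total, without TMM factors. Fold changes are log2 values ± standard error from an edgeR quasi-likelihood fit of the 4 libraries of a line, and a call required an adjusted p under 0.1 together with a fold change over 1.5.

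In H460, 9 of the 10 clock genes rose in hypoxia, and CRY1 (0.01 ± 0.12, adjusted p = 0.96) was the exception. In RKO, BHLHE40, BHLHE41 and PER1 rose, and in A549 none of the 9 members tested was called. The share of all tested genes that rose was 24.6% in H460, 18.8% in RKO and 2.22% in A549, and the share that fell was 27.3%, 15.1% and 0.456%. No member was called lower in any line. With library-size scaling in place of TMM, the median of all H460 genes shifted by -0.35, 14.7% of all genes rose and 40.9% fell there, and 8 members still rose. The median log2 fold change of the members was 1.61 in H460, 0.44 in RKO and -0.14 over the 9 tested in A549, against medians near 0 over all tested genes. Both hypoxic libraries lay above both normoxic libraries for 9 of 10 members in H460, 7 of 10 in RKO and 2 of 9 in A549, where both hypoxic libraries lay above for 42.4%, 38.9% and 26% of all tested genes. DESeq2, like the main fit without pairing of replicates, also called 0 members in A549. With the replicate number as a block, BHLHE40 and NR1D1 were called there. The share of all genes called with DESeq2 or with the block is not given here, so these counts show only how calls moved. In the main A549 fit NR1D1 alone of the members had an unadjusted edgeR p under 0.05, as did 2363 of all 14251 genes tested.

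**Figure D1:**
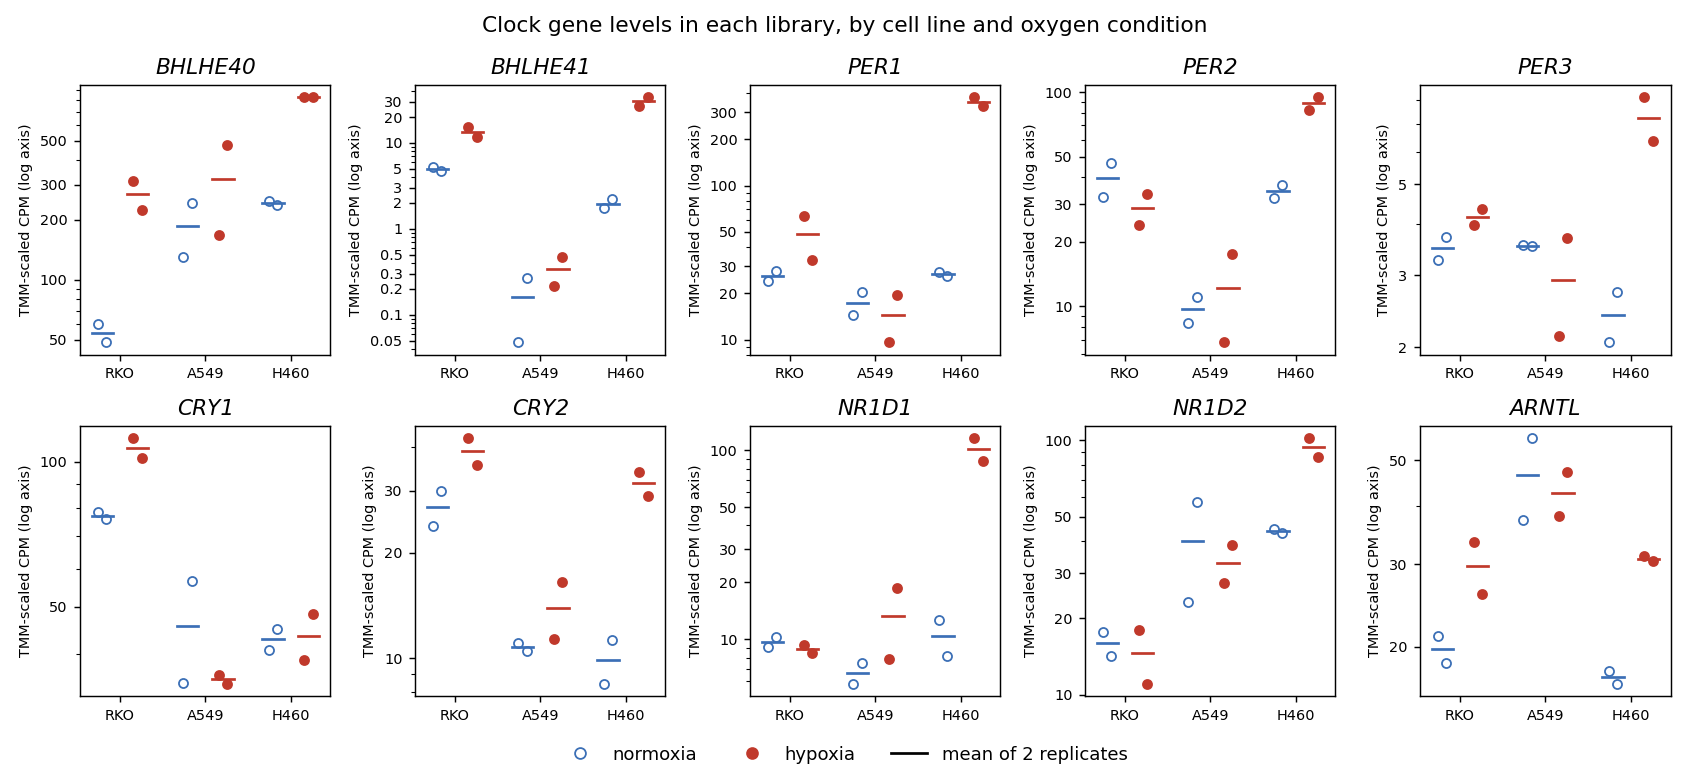
Level of each clock gene in all 12 libraries, in TMM-scaled CPM on log axes that differ between panels. Open points are normoxic and filled points hypoxic libraries, and lines are means of 2 replicates. In H460 the filled points lie above the open points in every panel except CRY1, while in A549 they are mixed in most panels.

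BHLHE40 had the highest RPKM of the members in every group except normoxic RKO, and it rose in RKO and H460. In RKO it stood at 59.6 and 48.4 CPM in the normoxic replicates 1 and 2 and at 314 and 224 CPM in the hypoxic ones. In H460 it stood at 249 and 237 CPM in normoxia and at 830 and 829 CPM in hypoxia. The conditions were far apart in both lines, and the H460 replicates were nearly equal. The log2 fold change was 2.25 ± 0.20 in RKO (adjusted p = 7.1e-05) and 1.76 ± 0.09 in H460 (adjusted p = 1.7e-08). A549 had 131 and 243 CPM in normoxia and 168 and 478 CPM in hypoxia, so the conditions overlapped and replicate 2 was the higher library in each. The A549 change of 0.77 ± 0.43 was not called (adjusted p = 0.41). The ratio of hypoxia to normoxia within a replicate number was 1.28 and 1.97 in A549, and with the replicate number as a block BHLHE40 was called there (0.66 ± 0.14, adjusted p = 0.0013). It was also called without A549 hypoxia replicate 1 (1.33), and the estimate was -0.16 without A549 hypoxia replicate 2.

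BHLHE41, the paralog of BHLHE40, was scarce in normoxia and had the largest change of all members in H460. It stood at 1.74 and 2.20 CPM in normoxic H460 and at 26.7 and 34.1 CPM in hypoxic H460. RKO had 5.18 and 4.77 CPM in normoxia and 15.4 and 11.8 CPM in hypoxia. The hypoxic libraries lay above the normoxic ones in both lines. The log2 fold change was 3.92 ± 0.18 in H460 (adjusted p = 6.9e-09) and 1.39 ± 0.24 in RKO (adjusted p = 0.0015). A549 gave 2 and 11 reads in normoxia and 9 and 16 reads in hypoxia, which was below the filter of 0.5 CPM in 2 libraries, so a change in A549 was not tested in the fit of that line. The order of the paralogs' RPKM was the same in all 12 libraries, with BHLHE40 above BHLHE41.

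PER1, a repressor that is also an immediate-early gene of the clock, rose in H460 and RKO. It stood at 27.7 and 25.9 CPM in normoxic H460 and at 375 and 327 CPM in hypoxic H460, a log2 fold change of 3.70 ± 0.11 (adjusted p = 5e-10). RKO had 24.0 and 27.8 CPM in normoxia and 63.4 and 32.9 CPM in hypoxia. The RKO conditions did not overlap, but hypoxic replicate 1 was far above replicate 2. The RKO change of 0.83 ± 0.26 was called (adjusted p = 0.027) and was 0.33 and not called without RKO hypoxia replicate 1 (adjusted p = 0.20). In A549 the levels overlapped, at 14.5 and 20.3 CPM in normoxia and 9.60 and 19.4 CPM in hypoxia (-0.28 ± 0.33, adjusted p = 0.71).

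PER2, the paralog of PER1 in the repressive complex, rose in H460 and had a negative estimate in RKO. In H460 it stood at 32.2 and 36.7 CPM in normoxia and at 82.4 and 94.7 CPM in hypoxia (1.35 ± 0.11, adjusted p = 4.1e-07). Its RKO levels were 32.6 and 46.8 CPM in normoxia and 24.0 and 33.4 CPM in hypoxia. Those ranges overlapped, and the RKO estimate of -0.53 ± 0.22 missed the fold threshold (adjusted p = 0.085). PER2 was called lower in RKO without normoxia replicate 1 (-0.76) or without hypoxia replicate 2 (-0.78). In A549 it stood at 8.41 and 11.1 CPM in normoxia and at 6.80 and 17.5 CPM in hypoxia, which overlapped (0.29 ± 0.39, adjusted p = 0.75).

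PER3 had the lowest RPKM of the members in RKO and H460 in both conditions, and 58 to 193 reads in a library. It rose in H460 from 2.06 and 2.73 CPM to 8.14 and 6.36 CPM (1.57 ± 0.21, adjusted p = 3.8e-05). The normoxic and hypoxic H460 libraries were well separated. In RKO it was 3.27 and 3.71 CPM in normoxia and 3.97 and 4.34 CPM in hypoxia (0.19 ± 0.27, adjusted p = 0.62). In A549 it was 3.55 and 3.53 CPM in normoxia and 2.13 and 3.69 CPM in hypoxia (-0.30 ± 0.35, adjusted p = 0.71).

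The cryptochromes bind PER proteins and repress the ARNTL pair, and CRY2 was called in H460 while CRY1 was called in no line. CRY2 rose in H460 from 8.47 and 11.3 CPM to 34.0 and 29.1 CPM (1.65 ± 0.15, adjusted p = 1e-06). CRY1 overlapped between conditions in H460, at 40.7 and 45.1 CPM in normoxia and 38.8 and 48.2 CPM in hypoxia. In RKO, CRY1 stood at 78.5 and 76.1 CPM in normoxia and at 112 and 102 CPM in hypoxia. RKO CRY2 stood at 23.9 and 30.02 CPM in normoxia and at 42.3 and 35.5 CPM in hypoxia. Both were higher in each hypoxic RKO library than in either normoxic one, with adjusted p of 0.049 for CRY1 (0.40 ± 0.15) and 0.065 for CRY2 (0.47 ± 0.18), and both missed the fold threshold. CRY2 was called in RKO without normoxia replicate 2 (0.64) or hypoxia replicate 2 (0.60). In A549, CRY1 had 34.8 and 56.5 CPM in normoxia and 36.1 and 34.7 CPM in hypoxia (-0.38 ± 0.24, adjusted p = 0.47). A549 CRY2 had 11.03 and 10.5 CPM in normoxia and 11.3 and 16.5 CPM in hypoxia (0.35 ± 0.25, adjusted p = 0.52). The direction of CRY1 in H460 depended on scaling, since library-size scaling gave -0.34 there.

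NR1D1, the REV-ERB alpha receptor, had a large rise in H460 and no call in RKO or A549. It stood at 12.7 and 8.12 CPM in normoxic H460 and at 115 and 87.9 CPM in hypoxic H460 (3.28 ± 0.18, adjusted p = 2.9e-08). In RKO it stood at 9.09 and 10.3 CPM in normoxia and at 9.31 and 8.45 CPM in hypoxia, a difference within the replicate range (-0.19 ± 0.22, adjusted p = 0.54). In A549 it stood at 5.83 and 7.504 CPM in normoxia and at 7.90 and 18.6 CPM in hypoxia. The A549 conditions did not overlap, although hypoxic replicate 1 was barely above the normoxic libraries (0.97 ± 0.38, adjusted p = 0.25). The replicate block called NR1D1 in A549 (0.87 ± 0.23, adjusted p = 0.0070), as did the fit without A549 hypoxia replicate 1 (1.45), while the estimate was 0.24 without A549 hypoxia replicate 2. THRA lies on the opposite strand and overlaps the end of NR1D1, and the authors counted reads by strand. THRA had a log2 fold change of 0.91 ± 0.14 in H460 (adjusted p = 0.00013).

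NR1D2, the REV-ERB beta receptor, rose in H460 alone among the lines by the call rule. It stood at 44.9 and 43.1 CPM in normoxic H460 and at 102 and 85.6 CPM in hypoxic H460 (1.07 ± 0.10, adjusted p = 1.6e-06). RKO had 17.6 and 14.2 CPM in normoxia and 18.0 and 11.1 CPM in hypoxia, which overlapped (-0.19 ± 0.25, adjusted p = 0.58). In A549 its normoxic libraries were far apart, at 23.2 and 57.0 CPM, and spanned the hypoxic values of 27.4 and 38.6 CPM (-0.30 ± 0.36, adjusted p = 0.73).

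ARNTL, the activator of the loop and the target of the REV-ERB receptors, rose in H460 from 17.8 and 16.7 CPM to 31.2 and 30.4 CPM (0.82 ± 0.11, adjusted p = 2.3e-05). Its H460 estimate fell under the fold threshold with library-size scaling (0.47) and with limma on log2 RPKM (0.46 at a pseudocount of 0.1, filtered or not, and 0.41 at 1). In RKO it stood at 21.1 and 18.5 CPM in normoxia and at 33.4 and 25.9 CPM in hypoxia. Those ranges did not overlap, and the RKO change of 0.52 ± 0.19 missed the fold threshold (adjusted p = 0.049). It was called in RKO with library-size scaling (0.60), in the joint fit of 12 libraries (0.59), with limma at a pseudocount of 0.1, filtered or not (0.59), and without RKO hypoxia replicate 2 (0.70). In A549 it stood at 37.2 and 55.7 CPM in normoxia and at 38.1 and 47.3 CPM in hypoxia, which overlapped (-0.14 ± 0.23, adjusted p = 0.81).

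**Figure D2:**
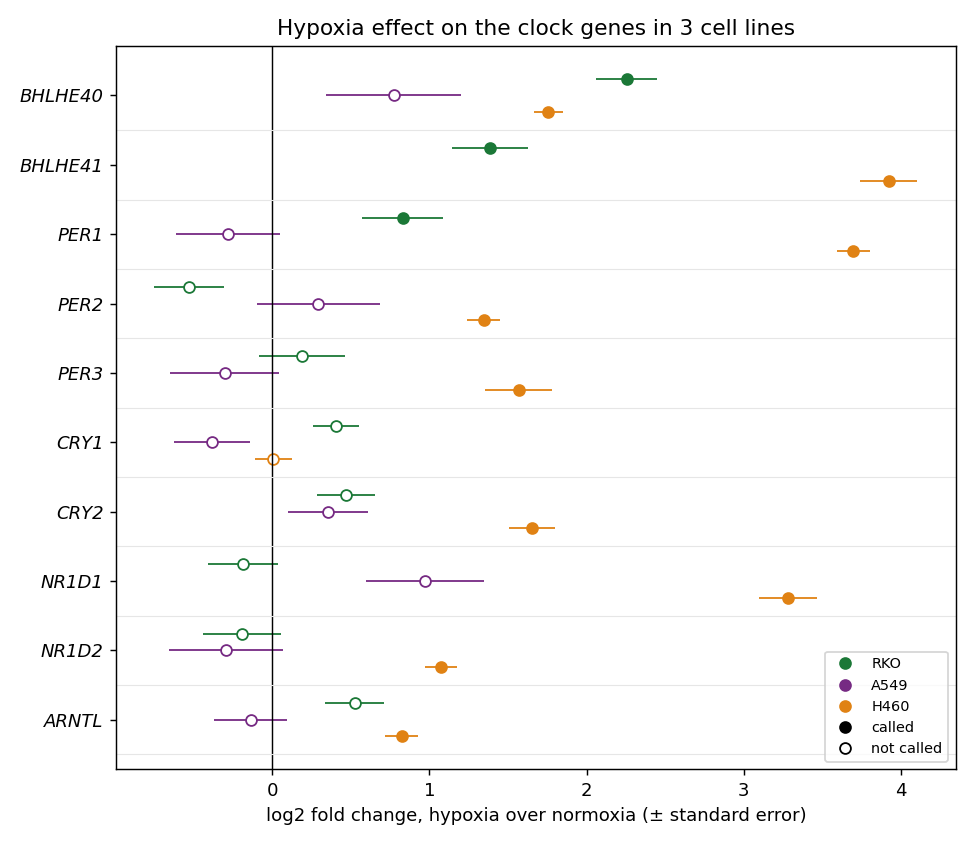
Hypoxia effect on each clock gene, as the log2 fold change of hypoxia over normoxia with its standard error, in RKO, A549 and H460. Filled points passed an adjusted p of 0.1 and a fold change of 1.5. In H460 9 of 10 points are filled and reach 3.92, in RKO 3 are filled, and in A549 none is.

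The lines were then compared directly, by the interaction of line and oxygen in a joint edgeR fit of the 12 libraries. BHLHE41 passed the filter of that fit only through its RKO and H460 libraries. Its comparisons with A549 rest on 2 and 11 reads in normoxia and 9 and 16 reads in hypoxia. The hypoxia effect differed between the 3 lines for 10 of 10 members at an adjusted p under 0.1, as it did for 48.8% of all 15595 genes tested. That count was 7 to 10 without single libraries, and BHLHE40, CRY1 and ARNTL lost their calls without A549 normoxia replicate 2. The effect was smaller in RKO than in H460 for 7 members (16.4% of all genes differed in this direction), BHLHE41, PER1, PER2, PER3, CRY2, NR1D1 and NR1D2. The largest of these differences were -3.41 ± 0.46 for NR1D1 (adjusted p = 0.00015) and -2.82 ± 0.43 for PER1 (adjusted p = 0.00038). The effect was smaller in A549 than in H460 for 7 members (17.2% of all genes), BHLHE41, PER1, PER3, CRY2, NR1D1, NR1D2 and ARNTL, and PER1 differed most (-3.98 ± 0.44, adjusted p = 7.5e-05). These pairs share the H460 libraries. Without single libraries, 5 to 8 members differed between RKO and H460 and 5 to 10 between A549 and H460. The lowest counts came without H460 normoxia replicate 1, where PER3 (-1.15) and NR1D2 lost the RKO call, and without A549 normoxia replicate 2, where BHLHE41 and NR1D2 lost the A549 call. The NR1D2 differences (-1.22 for RKO and -1.37 for A549) also lost their calls without other single libraries, and the values nearest 0 came without RKO hypoxia replicate 2 (-0.89) and A549 normoxia replicate 2 (-0.58). The BHLHE41 difference between A549 and H460 (-2.88 ± 0.75) lost its call without A549 normoxia replicate 2 (-1.23). BHLHE40 did not pass between H460 and either other line, with differences of 0.55 ± 0.51 for RKO minus H460 (adjusted p = 0.47) and -0.98 ± 0.51 for A549 minus H460 (adjusted p = 0.17). With the replicate block both passed, at 0.53 (adjusted p = 0.049) and -1.10 (adjusted p = 0.0015), and so did PER2 for A549 minus H460 (-1.17, adjusted p = 0.0063). Between RKO and A549, BHLHE40 (1.53 ± 0.52, adjusted p = 0.083) and CRY1 (0.83 ± 0.27, adjusted p = 0.072) had larger effects in RKO, as did 9.03% of all genes. That count of 2 ranged from 0 to 4 when single libraries were left out. With the replicate block, PER1 (1.15), ARNTL (0.68) and NR1D1 (-1.02) were called between RKO and A549 in addition.

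The average effect over the 3 lines called 5 members higher, against 14.8% of all genes higher and 11.5% lower. BHLHE41, with few reads in A549, had an average log2 fold change of 2.15 ± 0.25 (adjusted p = 1.1e-05). The average was 1.63 ± 0.21 for BHLHE40 (adjusted p = 2.9e-05) and 1.45 ± 0.18 for PER1 (adjusted p = 1.6e-05). NR1D1 averaged 1.38 ± 0.19 (adjusted p = 3.3e-05) and CRY2 0.86 ± 0.12 (adjusted p = 5.8e-05). The average of CRY1 was 0.04 ± 0.11 (adjusted p = 0.82), and the averages summarize effects that differed between lines in the interaction test above.

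In normoxia 4 to 7 of the 10 members differed between 2 lines, where 52.1% to 61.9% of all genes did. Compared per length in RPKM (means of 2 libraries), CRY1 led in RKO at 24.95, followed by BHLHE40 at 18.9, then ARNTL at 7.33, PER2 at 6.68, CRY2 at 6.57 and PER1 at 5.86. The ranges of ARNTL, PER2, CRY2 and PER1 overlapped each with the next, so their order was not resolved. BHLHE40 led in A549 at 65.2 RPKM and in H460 at 83.4 RPKM. In A549 ARNTL (17.1) and CRY1 (14.7) came next, with ranges that overlapped, and BHLHE41 was last at 0.045 RPKM. In H460 CRY1 (13.6), NR1D2 (8.33) and ARNTL (6.26) followed, and PER3 was last at 0.39 RPKM. After hypoxia the order in H460 was BHLHE40 at 220.6 RPKM, PER1 at 60.1 and NR1D1 at 29.5, while CRY1 stood at 10.7, with a range that overlapped that of PER2 at 11.3. RPKM carries no TMM factor, so it gives the order within a group and not the change between conditions.

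**Figure D3:**
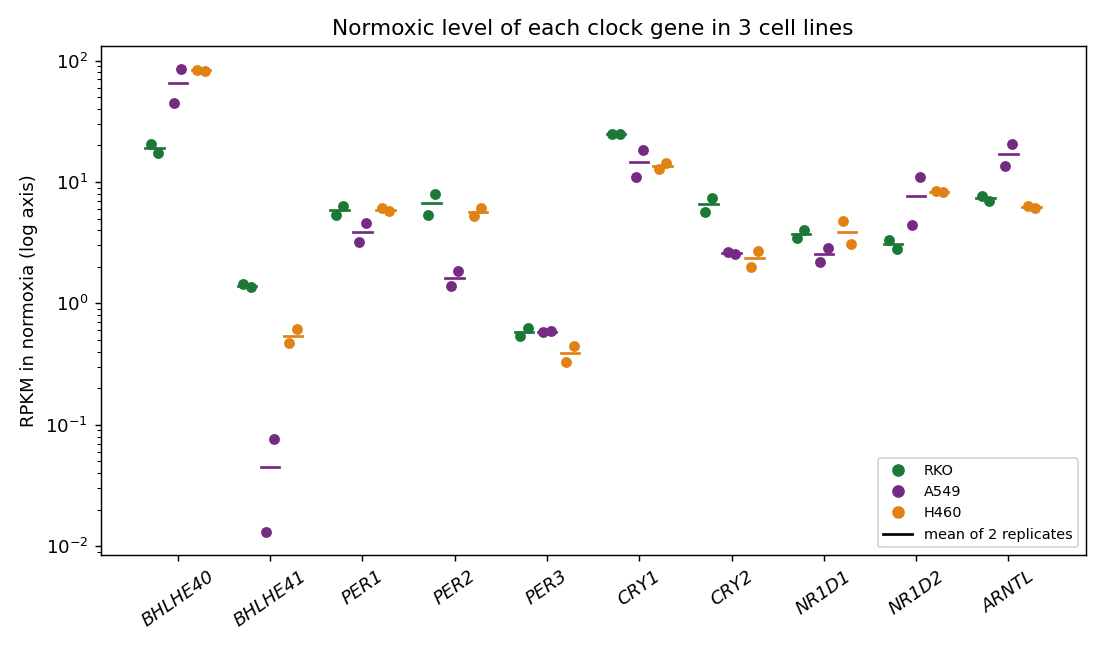
RPKM of each clock gene in the normoxic libraries of RKO, A549 and H460, on a log axis. Points are libraries and lines are means of 2 replicates. BHLHE40 is below the other lines in RKO, and BHLHE41 is lowest in A549 at a mean of 0.045 RPKM.

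Between RKO and A549 in normoxia 7 members differed in the joint fit (60.2% of all genes did). BHLHE41 (4.95 ± 0.45), PER2 (2.03 ± 0.33), CRY2 (1.32 ± 0.21) and CRY1 (0.76 ± 0.19) were higher in RKO, with BHLHE41 resting on the 2 and 11 reads of A549. BHLHE40 (-1.79 ± 0.38), NR1D2 (-1.33 ± 0.33) and ARNTL (-1.23 ± 0.20) were lower in RKO. NR1D2 did not pass the fold threshold without A549 normoxia replicate 2 (-0.55), and CRY1 not without A549 normoxia replicate 1 (0.45). Between RKO and H460, 5 members differed (61.9% of all genes did), with CRY2 (1.45 ± 0.22), BHLHE41 (1.33 ± 0.33) and CRY1 (0.85 ± 0.19) higher in RKO and BHLHE40 (-2.17 ± 0.38) and NR1D2 (-1.47 ± 0.33) lower. Between A549 and H460, 4 members differed (52.1% of all genes did), with ARNTL higher in A549 (1.43 ± 0.20) and BHLHE41 (-3.62 ± 0.48, on the same few A549 reads), PER2 (-1.82 ± 0.33) and PER1 (-0.62 ± 0.31) lower. PER1 was the weakest of these calls (adjusted p = 0.093), and it was lost without A549 normoxia replicate 1 (-0.40). This last count was 7 without A549 normoxia replicate 2. Beside the few reads of BHLHE41, the A549 normoxic replicates were least alike for NR1D2 (23.2 and 57.0 CPM) and BHLHE40 (131 and 243 CPM).

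Of 26 further genes of the clock, 22 were tested in RKO and 23 each in A549 and H460, and RORB and HLF were below the filter in every line. In H460 12 of them rose and 3 fell, where 24.6% of all genes rose and 27.3% fell. In RKO 3 rose and 1 fell, shares below the 18.8% and 15.1% of all genes, and in A549 none rose and 1 fell, against 2.22% and 0.456%. Their median log2 fold change was 0.59 in H460, 0.18 in RKO and -0.08 in A549.

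RORA, the receptor that activates ARNTL from the elements to which the REV-ERB receptors bind, rose in RKO from 11.3 and 9.21 CPM to 96.4 and 59.7 CPM (2.86 ± 0.24, adjusted p = 6e-05). In H460 it rose from 59.1 and 68.5 CPM to 505 and 452 CPM (2.89 ± 0.11, adjusted p = 1.8e-09). RORA stayed at or below 1.08 CPM in all A549 libraries (0.11 ± 0.50, adjusted p = 0.93). NFIL3, a repressor at D-box elements, rose in RKO (1.89 ± 0.27, adjusted p = 0.00061) and in H460 (2.45 ± 0.10, adjusted p = 3.5e-09) and was not called in A549 (0.13 ± 0.29, adjusted p = 0.86).

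The D-box activators DBP and TEF, output genes of the clock, rose in H460. DBP went from 1.70 and 0.82 CPM to 13.3 and 12.9 CPM (3.39 ± 0.25, adjusted p = 2.2e-07), and TEF from 5.14 and 5.60 CPM to 32.2 and 29.9 CPM (2.51 ± 0.13, adjusted p = 1.3e-08). Neither was called in RKO, where DBP gave 0.39 ± 0.24 and TEF 0.13 ± 0.20, or in A549, where they gave 0.24 ± 0.43 and 0.64 ± 0.38. HLF, the other activator of that family, was not tested.

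Of the partners of ARNTL, NPAS2 rose in H460 (0.70 ± 0.09, adjusted p = 1.8e-05), while CLOCK had an estimate of -0.40 ± 0.10 there and missed the fold threshold (adjusted p = 0.0038). That miss is with TMM. Library-size scaling shifted H460 estimates by a median of -0.352, and the CLOCK value with it is not given here. ARNTL2, the paralog of ARNTL, fell in H460 from 9.93 and 10.6 CPM to 4.85 and 3.20 CPM (-1.38 ± 0.19, adjusted p = 4.7e-05), against the rise of ARNTL in the same libraries. In RKO and A549, ARNTL2 was not called (-0.24 ± 0.15 and 0.37 ± 0.18).

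Of the kinases known to phosphorylate clock proteins, CSNK1E (1.63 ± 0.10), CSNK1A1 (0.80 ± 0.09), CSNK1D (0.76 ± 0.09) and GSK3B (0.59 ± 0.09) rose in H460. GSK3B passed the fold threshold narrowly, and with the replicate block it did not. CCRN4L (NOCT, a clock-controlled deadenylase family gene, 0.83 ± 0.14), KLF10 (0.81 ± 0.09) and PPARGC1A (1.45 ± 0.10), a coactivator of ROR receptors, completed the genes that rose there. With library-size scaling 6 of the 23 genes tested rose and 4 fell in H460, where 14.7% of all genes rose and 40.9% fell. NPAS2, CCRN4L, KLF10, CSNK1D, CSNK1A1 and GSK3B were then no longer called. PPARGC1A was the gene that fell in A549, from 4.22 and 5.67 CPM to 2.18 and 1.69 CPM (-1.36 ± 0.33, adjusted p = 0.095), and it was below the filter in RKO. That call was lost without A549 normoxia replicate 2 (-1.14) or A549 hypoxia replicate 2 (-1.18). The replicate block called TIPIN (-1.05) and USP2 (-0.88) lower in A549 in addition.

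TIPIN and TIMELESS, a pair best known for protecting replication forks, fell in H460 (-2.40 ± 0.14, adjusted p = 2.9e-08, and -1.71 ± 0.09, adjusted p = 1.8e-08). TIPIN also fell in RKO (-0.98 ± 0.22, adjusted p = 0.0056), whereas TIMELESS did not change detectably there (0.04 ± 0.16, adjusted p = 0.85). In A549 both estimates were negative but not called, at -0.99 ± 0.31 for TIPIN (adjusted p = 0.18) and -0.50 ± 0.22 for TIMELESS (adjusted p = 0.30). USP2, a ubiquitin protease that acts on clock proteins, rose in RKO (0.87 ± 0.36, adjusted p = 0.078) at 1.00 to 2.74 CPM. The USP2 call was lost with DESeq2 (0.87) and without RKO normoxia replicate 1 (1.18), RKO hypoxia replicate 1 (0.69) or RKO normoxia replicate 2 (0.61).

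**Figure D4:**
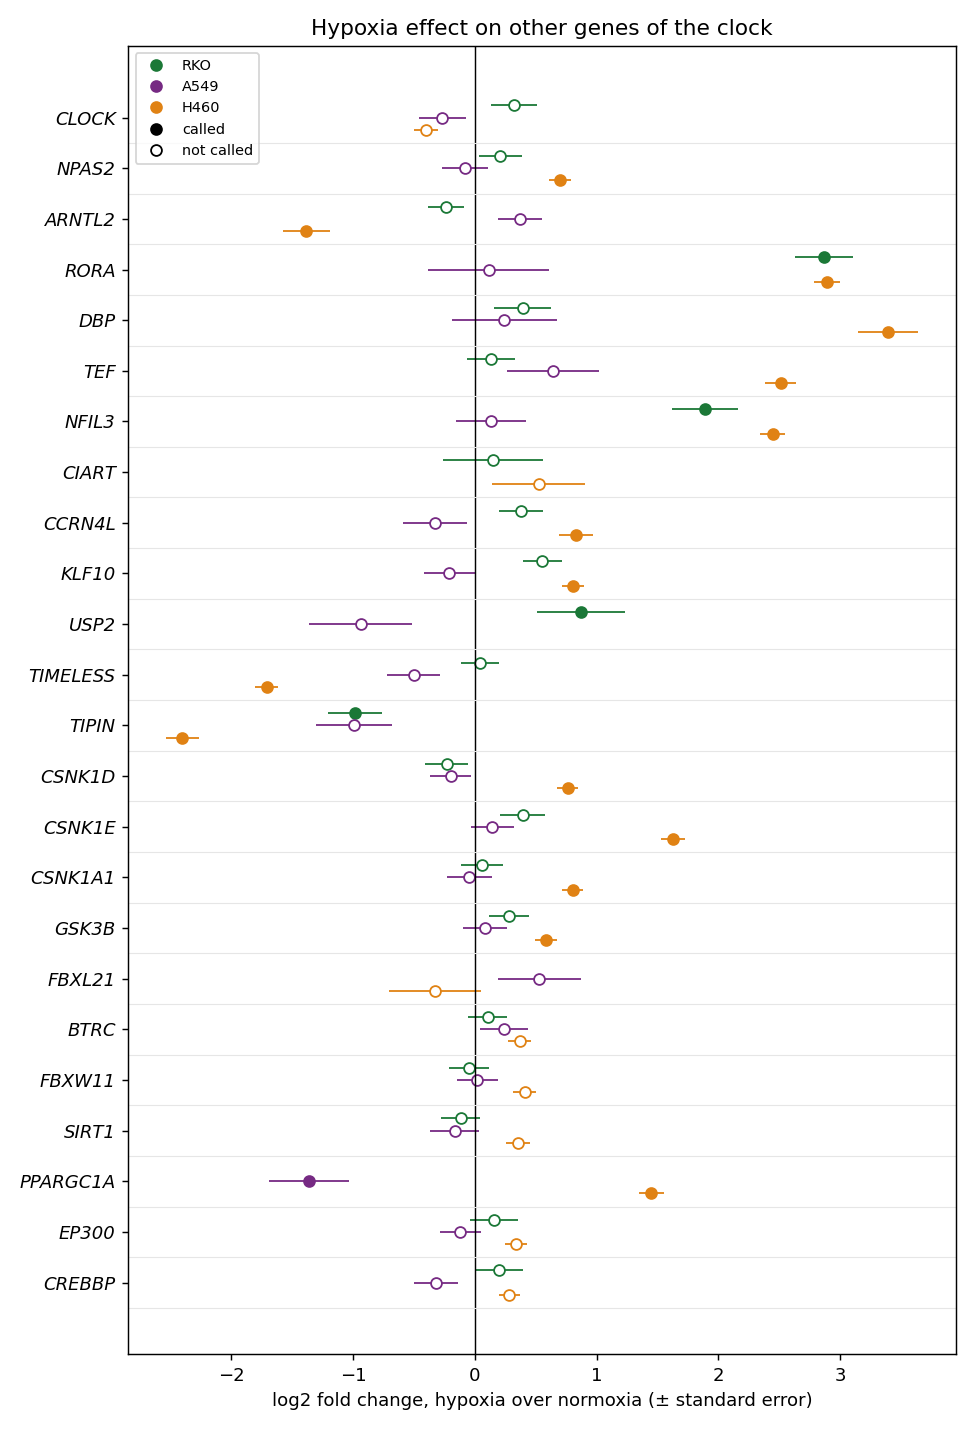
Hypoxia effect on the further clock genes that were tested in at least 1 line, as the log2 fold change with its standard error in RKO, A549 and H460. Filled points were called. In H460 RORA, DBP, TEF and NFIL3 lie between 2.45 and 3.39, and TIPIN lies at -2.40.

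Across the 12 libraries the members that tracked each other most were PER1 and NR1D1, with a Pearson correlation of 0.90 on log2 CPM. BHLHE41 correlated with PER2 at 0.87 and with PER1 at 0.86, with 2 to 16 BHLHE41 reads in each A549 library. In RKO the hypoxia estimates of BHLHE41 (1.39) and PER1 (0.83) were positive and that of PER2 (-0.53, not called) was negative. The points of each correlation share line and oxygen condition, and each correlation is a description over 12 libraries. Of 12423 genes with at least 100 counts on average, the pattern most like that of BHLHE40 was that of ERRFI1 (0.98), and that most like PER1 was TMEM39A (0.99). MMS19 was nearest to NR1D1 (0.98), LIMS1 to NR1D2 (0.99) and FAM199X to BHLHE41 (0.99). The nearest gene to PER3 was CHIC1 at 0.92, the lowest such value among the members.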

How the data were processed

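Strand-specific poly(A)+ libraries were read from a single end. The authors trimmed reads, aligned them with TopHat2 2.0.13 to GRCh37/hg19 (UCSC annotation), removed alignments of low mapping quality and counted exon reads by strand with HTSeq 0.6.1. The authors deposited read counts per gene, used for all main fits, and RPKM values, which equal counts divided by gene length and by the library total.

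Counts of each line (4 libraries) were fitted with the edgeR 4.0.16 quasi-likelihood F test in R 4.3.3, with TMM factors, over genes above 0.5 CPM in at least 2 libraries, and p values were adjusted by Benjamini-Hochberg over all genes tested. A joint fit of 12 libraries gave interactions (called on adjusted p alone), average effects and normoxic contrasts. The method was tested on simulated counts. Alternatives were DESeq2 1.42.0, limma 3.58.1 on log2 RPKM, other scalings, filters and fold thresholds, a replicate block and leaving out each library. The pattern likeness used log2(CPM + 0.5).

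The authors describe replicates as independent, and replicates of a group differed by more than counting error (chi-square per degree of freedom 10.1 to 79.1). Deviations of libraries with the same replicate number correlated at 0.356 in RKO, 0.371 in A549 and 0.145 in H460. The records do not state that these libraries were paired. The main fits leave such a pairing out, and the replicate block, an alternative, takes the numbers to pair libraries. The members, all of which are named, and the lists of further clock genes, hypoxia genes and markers were chosen with earlier results of these data known. From the further list, genes called in any line are named, and CLOCK, HLF and RORB were named outside this rule after their values were seen. Some genes of that list are not reported here. With 2 replicates per group, precision rests on the spread shared across genes.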

Additional observations from a re-analysis of the deposited data

Results flagged for a closer look

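The hypoxia effect of all 10 members differed between the 3 lines in the interaction test with all 12 libraries, as it did for 48.8% of all genes. Without single libraries 7 to 10 members differed. Each member is given here as the difference in log2 fold change for the called pair of lines with the largest difference. Between A549 and H460 the effect was smaller in A549 for PER1 (-3.98, adjusted p = 7.5e-05), BHLHE41 (-2.88, adjusted p = 0.012), PER3 (-1.88, adjusted p = 0.0044), NR1D2 (-1.37, adjusted p = 0.039), CRY2 (-1.30, adjusted p = 0.0064) and ARNTL (-0.96, adjusted p = 0.021). The BHLHE41 value rests on 2 to 16 reads in each A549 library. Between RKO and H460 it was smaller in RKO for NR1D1 (-3.41, adjusted p = 0.00015) and PER2 (-1.83, adjusted p = 0.0078). Between RKO and A549 it was larger in RKO for BHLHE40 (1.53, adjusted p = 0.083) and CRY1 (0.83, adjusted p = 0.072).

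Of the 24 further clock genes tested, 16 differed between the lines, against 48.8% of all genes, and the 15 given here were also called in at least 1 line. For A549 minus H460 these were DBP (-3.14), PPARGC1A (-2.81), NFIL3 (-2.31), CSNK1E (-1.48), CCRN4L (-1.16), KLF10 (-1.02), CSNK1D (-0.96), CSNK1A1 (-0.85), NPAS2 (-0.78) and ARNTL2 (1.75). For RKO minus H460 they were TEF (-2.33), TIPIN (1.46) and TIMELESS (1.80), and for RKO minus A549 they were RORA (2.82) and USP2 (1.86).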

How the results depend on the processing

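The counts in this section show only how calls moved between settings, since the share of all genes at each setting is not given beside them. H460 kept 9 called members without any single library. Among members in RKO, 7 were called with no minimum fold change, and 2 to 6 without single libraries. In A549, 2 were called with the replicate block, 1 in the joint fit and 0 to 2 without single libraries. Further clock genes called numbered 2 in RKO at a fold change over 2 (3 to 7 without single libraries). In A549 they numbered 0 with library-size scaling and with limma at pseudocounts of 0.1, with or without the filter, and 1, 2 with no filter, the joint fit or DESeq2, 3 with the block and 0 to 3 without single libraries. In H460 they numbered 9 at a fold change over 2 and 10 with library-size scaling and each limma setting. RKO minus A549 interactions numbered 4 with library-size scaling, 6 with no filter, 5 with the block, 0 with unfiltered limma and 0 to 4 without single libraries. Average effects numbered 8 with no minimum fold change. A549 to H460 normoxic differences numbered 2 with limma at a pseudocount of 1, and 3 to 7 without single libraries.

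CRY1 in H460 reversed to -0.34 (library size), -0.0041 (filter of 1 CPM), -0.35 (limma at 0.1, filtered and unfiltered) and -0.33 (limma at 1), and ranged from -0.14 to 0.17 without single libraries. Its average effect reversed to -0.11 (library size), -0.099 (limma at 0.1, filtered and unfiltered) and -0.087 (limma at 1), and ranged from -0.063 to 0.17. Estimates that were not called also changed sign without single libraries. In A549 the ranges were -0.16 to 1.33 for BHLHE40, -0.86 to 0.13 for PER1, -0.53 to 0.81 for PER2, -0.74 to 0.032 for PER3, -0.69 to 0.0028 for CRY1, -0.80 to 0.49 for NR1D2 and -0.40 to 0.18 for ARNTL, and in RKO -0.53 to 0.13 for NR1D2. PER3 in H460 lost its call with limma at a pseudocount of 1 (0.46).

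The replicate block changed the calls given beside BHLHE40, NR1D1, PER1, PER2, ARNTL, GSK3B, TIPIN and USP2, and it changed no other call named in the hypoxia comparisons. In the interaction tests the block also added calls among the further clock genes, GSK3B included, to those counted without the block. Blocks lie within lines, so normoxic differences between lines have no blocked fit. Blocked fits of a line leave 1 residual degree of freedom. Groups of 2 replicates, 1 harvest time and the few BHLHE41 reads in A549 limit these comparisons. The cause of these changes was not tested.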
